A study of Rattus norvegicus with 11 samples.

Results

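Expression of 47 named genes of the cell cycle and of DNA replication was examined in rat liver after mequindox, an antibacterial feed additive of the quinoxaline family. The members were fixed by name, and 45 of the 47 had a probe set that carried their symbol alone, out of 14217 genes with such a probe set; Rrm2 and Cdc6 were not analysed here. Each gene was represented by its probe set with the highest mean log2 signal over the 11 arrays. The members fell into 15 measured genes of DNA replication and nucleotide supply, 16 of G2 and mitosis, and 14 G1 cyclins, cyclin-dependent kinases, inhibitors and transcription factors. Livers came from 3 control Wistar rats (animals 1, 2 and 9) and 8 Wistar rats given the high dose of mequindox (animals 2, 3, 4, 5, 6, 8, 10 and 11), 1 array per animal. All animals were labelled week 9 except high-dosed animal 8, labelled week 10. The labels used here state neither the dose nor how long it was given, and the study picked these groups for arrays with a principal component score of liver extracts and clinical chemistry in view.

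A cell commits to division in G1, when D-type cyclins with Cdk4 or Cdk6 phosphorylate the retinoblastoma protein and release E2F transcription factors. E2F-driven genes then supply the MCM helicase, polymerases and deoxynucleotides of S phase. A later wave of genes, driven through the MuvB complex with B-Myb and Foxm1, builds the mitotic machinery. Most hepatocytes of the adult liver rest outside the cycle and re-enter it after loss of tissue or injury, so transcripts of S phase and mitosis are usually scarce there.

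The promoters of the measured members carried the motifs tied to these programmes to different extents. Of the 45 members 34 had an entry in the RefSeq promoter table of build GRCr8, from 250 bases before to 50 after the gene start. The E2F words searched were TTTCCCGC, TTTGGCGC, TTTGCCGC and TTTCGCGC on both strands, where words on opposite strands may overlap. At least 1 of them stood in 9 of 14 replication windows (64.3%), 2 of 13 mitotic windows (15.4%) and 1 of 7 windows of the third set (14.3%), against 2.14% of 33465 windows in the whole table. The cell cycle homology region, CHR, searched as TTTGAA on both strands, stood in 9 of 13 mitotic windows (69.2%), 1 of 14 replication windows and 0 of 7 of the third set, against 18.3% of all windows. CCAAT on both strands, the word of the NF-Y factor, stood in 10 of 13 mitotic windows (76.9%) and 9 of 14 replication windows (64.3%), against 37.5%, and the palindromic E-box CACGTG in 1 window of each set, those of Mcm2, Stmn1 and Cdk4, against 6.42%. A match describes letters in a window and not a bound site.

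The 250 bases before the start are printed for 4 of the 5 members that rose (Mcm4 had no entry) and for Mki67 and Birc5, mitotic genes that hold both CHR and CCAAT. Tyms lies at chr9:120776084-120776333, minus strand; Stmn1 at chr5:151964929-151965178, plus strand; Cdk4 at chr7:64771203-64771452, plus strand. Ccnd3 lies at chr9:20897876-20898125, minus strand; Mki67 at chr1:199952594-199952843, minus strand; Birc5 at chr10:103571896-103572145, plus strand. Capitals mark the E2F word in Tyms; E-boxes, CCAAT and the E2F word in Stmn1; E-boxes in Cdk4; CCAAT in Ccnd3; and CHR and CCAAT, read on either strand, in Mki67 and Birc5.
Tyms: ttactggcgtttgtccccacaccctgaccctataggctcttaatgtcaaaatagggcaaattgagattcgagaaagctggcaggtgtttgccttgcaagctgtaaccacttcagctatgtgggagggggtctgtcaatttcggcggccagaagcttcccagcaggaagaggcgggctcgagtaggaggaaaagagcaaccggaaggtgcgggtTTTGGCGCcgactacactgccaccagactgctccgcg
Stmn1: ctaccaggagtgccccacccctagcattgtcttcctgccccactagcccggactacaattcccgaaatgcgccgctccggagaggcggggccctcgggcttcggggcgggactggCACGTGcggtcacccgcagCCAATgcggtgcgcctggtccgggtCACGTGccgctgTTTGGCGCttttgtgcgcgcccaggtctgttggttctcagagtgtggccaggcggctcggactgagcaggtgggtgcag
Cdk4: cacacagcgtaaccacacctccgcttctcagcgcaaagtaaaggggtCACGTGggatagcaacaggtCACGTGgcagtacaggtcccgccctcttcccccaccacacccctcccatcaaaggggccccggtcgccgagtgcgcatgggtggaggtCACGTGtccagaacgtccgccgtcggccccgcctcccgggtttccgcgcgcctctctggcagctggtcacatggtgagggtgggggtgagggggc
Ccnd3: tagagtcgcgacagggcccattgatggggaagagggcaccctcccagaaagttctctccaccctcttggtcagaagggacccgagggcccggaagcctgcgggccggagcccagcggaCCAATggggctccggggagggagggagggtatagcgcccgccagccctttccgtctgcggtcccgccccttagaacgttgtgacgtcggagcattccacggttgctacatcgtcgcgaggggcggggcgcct
Mki67: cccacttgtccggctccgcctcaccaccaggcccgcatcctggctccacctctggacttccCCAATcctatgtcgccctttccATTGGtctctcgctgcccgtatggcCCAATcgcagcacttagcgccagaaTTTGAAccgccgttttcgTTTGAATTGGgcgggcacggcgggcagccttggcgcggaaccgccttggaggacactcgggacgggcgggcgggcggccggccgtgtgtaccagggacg
Birc5: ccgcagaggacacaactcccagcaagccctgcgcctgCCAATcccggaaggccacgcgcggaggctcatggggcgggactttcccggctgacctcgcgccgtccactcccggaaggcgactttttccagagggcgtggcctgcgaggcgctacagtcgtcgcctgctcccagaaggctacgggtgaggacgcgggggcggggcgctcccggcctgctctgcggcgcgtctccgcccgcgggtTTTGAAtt

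**Figure D1:**
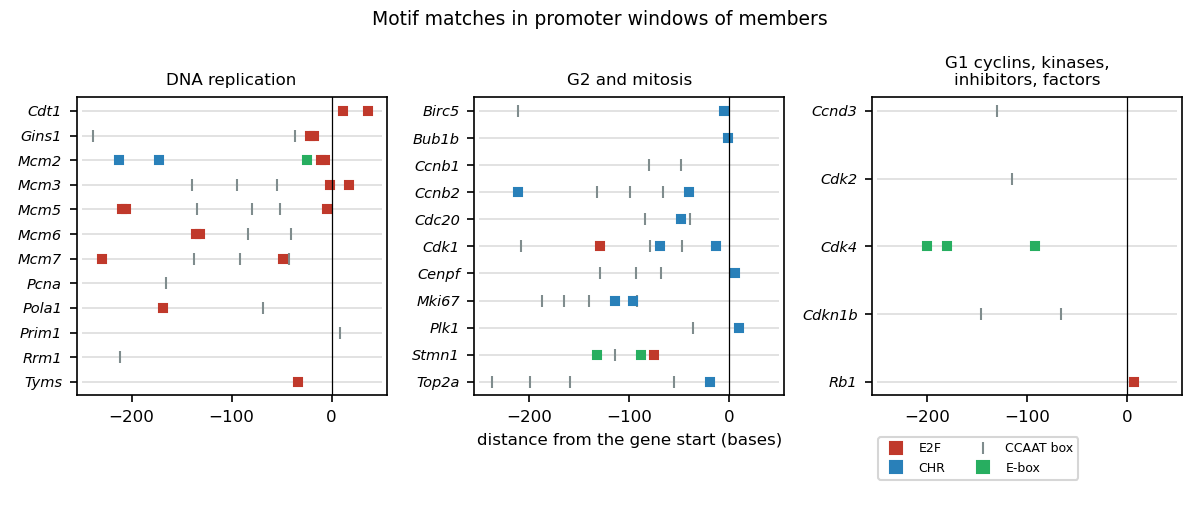
Positions of motif matches in the promoter windows of the members that have any, as distance in bases from the gene start, by set. Squares are E2F words, CHR words and E-boxes, vertical ticks are CCAAT words; E2F words are drawn in 9 replication genes and CHR words in 9 mitotic genes.

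Tyms holds 1 E2F word, 37 to 30 bases before its start. Stmn1 holds E-boxes on both sides of its CCAAT, the nearer one 91 to 86 bases before the start, followed by an E2F word. Cdk4 holds 3 E-boxes and none of the other words. In Mki67 the second CHR shares its last base with a CCAAT on the other strand, and in Birc5 the CHR ends 3 bases before the start.

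In the high-dosed animals 5 of the 45 members rose and 0 fell, by limma with Benjamini-Hochberg adjustment over all 14217 genes. The risers were the MCM helicase subunit Mcm4, thymidylate synthase Tyms, the microtubule-destabilising protein Stmn1, cyclin D3 (Ccnd3) and its kinase Cdk4, by 1.16-fold to 1.85-fold. That is 11.1% of members, where 6.65% of all genes were called, 4.83% higher and 1.83% lower. An unadjusted limma p below 0.05 was reached by 12 of the 45 members and by 3082 of the 14217 genes. In the same comparison 3 of 8 measured endothelial markers and 1 of 5 bile duct markers rose. Of 10 hepatocyte markers 1 rose and 1 fell. No Kupffer cell, lymphocyte, stellate cell, red cell precursor or neutrophil marker passed. Fold changes are on the scale of log2(intensity + 55.26) and understate changes of dim genes, and a gene was near background when its mean log2 signal lay under the 40th percentile of all probe sets (7.40, an intensity of about 113). By that measure 13 members were near background and 32 were not. The median log2 fold change over all members was 0.14, against -0.0027 over all genes, and 64.4% of members against 49.2% of all genes lay above 0. In bulk liver, fewer cells of a type and less RNA per cell cannot be told apart.

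**Figure D2:**
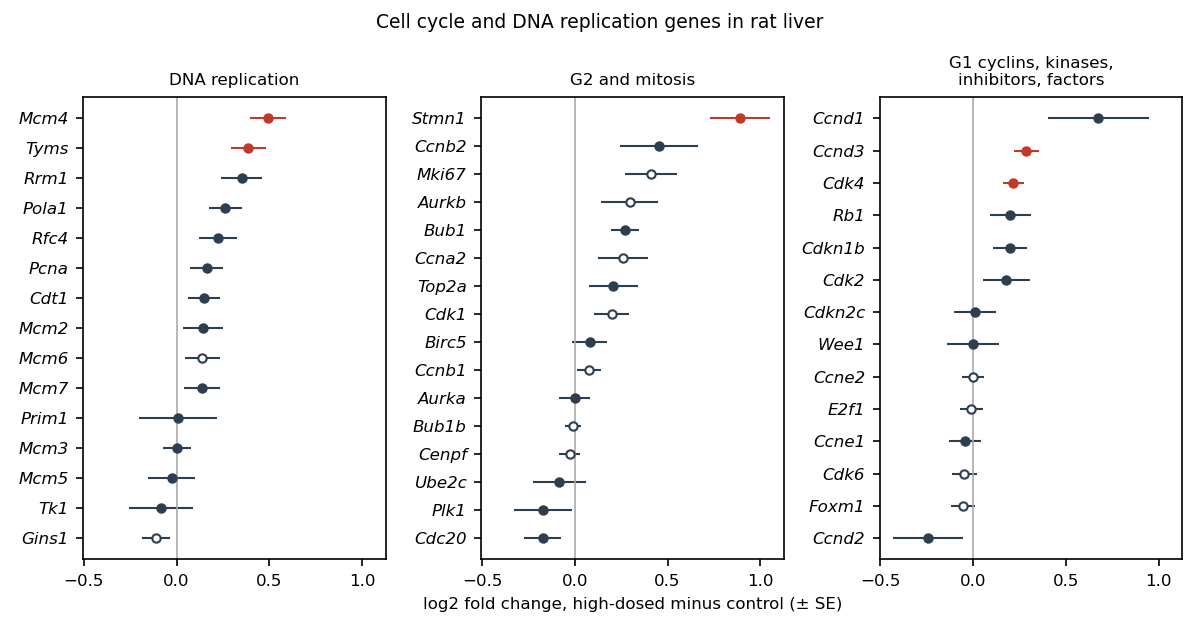
Log2 fold change of each measured member, high-dosed minus control, with its SE (limma, 3 control and 8 high-dosed animals), in 3 sets. Red points are the 5 members that rose, open symbols are members near background; Stmn1 stands farthest to the right at 0.89 and no red point lies left of 0.

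Control animal 1 weighed on these counts. Without it 1 member was called, Stmn1, and 273 genes in all against 946, and without control 9 the called members were 3, Mcm4, Bub1 and Stmn1. After quantile normalization or median centring 3 members were called, Mcm4, Tyms and Stmn1, and without high-dosed animal 5 also 3, Mcm4, Stmn1 and Ccnd3. With the animal number as a block (8 and above against 6 and below), or without high-dosed animal 6, 8 members were called: the 5 above with Rrm1, Mki67 and Bub1. That block follows a split of the animals drawn after the values had been seen. Control 9 was its only control at 8 and above. Within animal numbers 6 and below (2 controls, 5 high-dosed) and with high-dosed animals 8, 10 and 11 left out 2 members were called, Mcm4 and Stmn1.

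Among the DNA replication genes 2 of 15 rose, 0 fell and 13 did not pass. Mcm4, 1 of 6 subunits of the helicase that unwinds DNA at origins, had intensities of 369, 463 and 492 in controls 1, 2 and 9, and from 539 through a median of 641 to 747 in the high-dosed animals. Every high-dosed animal lay above every control. Mcm4 rose 1.41-fold (log2 fold change 0.49 ± 0.096, SE, n = 3 and 8, limma adjusted p = 0.0102); without control 1 the value was 0.38 and the call was lost (limma adjusted p = 0.0796). None of the other 5 MCM subunits passed: Mcm2 (0.14), Mcm6 (0.14) and Mcm7 (0.14) lay above 0, and Mcm3 (0.0037) and Mcm5 (-0.027) near it, with limma adjusted p from 0.441 to 0.984. Whether Mcm4 differed from them was not tested. Mcm7, for example, read 667, 733 and 820 in controls and 679 to 940, median 823, in high-dosed animals, and the groups overlapped.

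Tyms, which makes thymidylate, read 87.6, 92.9 and 77.6 in controls 1, 2 and 9 and 91.4 to 152, median 132, in high-dosed animals. High-dosed animal 2, at 91.4, lay within the range of the controls and the other 7 lay above them. Tyms rose 1.31-fold (0.39 ± 0.094, limma adjusted p = 0.0287), close to the background level, and the call was lost without any 1 control (limma adjusted p from 0.0588 to 0.117), without high-dosed animal 5 (0.0509), within animal numbers 6 and below (0.162) and with animals 8, 10 and 11 left out (0.0636). Rrm1, the large subunit of ribonucleotide reductase, had a log2 fold change of 0.35 ± 0.11 (limma adjusted p = 0.0759), and Pola1, the catalytic subunit of polymerase alpha, 0.26 ± 0.088 (0.0927). Both had unadjusted limma p below 0.05 and did not pass. Rrm1 passed with the animal-number block, drawn after the values had been seen (limma adjusted p = 0.0457), or without high-dosed animal 6 (0.04995). Pola1 passed without high-dosed animal 2 (0.0253).

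Pcna, the sliding clamp, read 1570, 1933 and 1775 in controls and 1596 to 2172, median 2007, in high-dosed animals. The groups overlapped, and its log2 fold change of 0.16 ± 0.089 did not pass (limma adjusted p = 0.324). Rfc4, a subunit of the clamp loader, had 0.22 and the origin licensing factor Cdt1 0.15. Tk1, the thymidine kinase of S phase, read 553, 548 and 563 in animals 8, 10 and 11 and 815 to 992 in the other 5, against 741 to 823 in controls (-0.085, 95% interval -0.46 to 0.29). A second Tk1 probe set, also above background, did not share that difference: it read 452, 469 and 417 in animals 8, 10 and 11 and 404 to 544 in the other 5, with a log2 fold change of 0.044. The remaining Tk1 probe set, near background, read 88.4 to 94.6 in those 3 animals and 100.15 to 119 in the other 5. Prim1, the primase (0.0076), ranged from 177 in high-dosed animal 2 to 457 in high-dosed animal 10, and Gins1, part of the helicase complex, had -0.11.

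Among the mitotic genes 1 of 16 rose, 0 fell and 15 did not pass. Stmn1, encoding stathmin, which binds tubulin and destabilises microtubules, read 383, 648 and 799 in controls 1, 2 and 9. In the high-dosed animals it read 933 to 1278, with a median of 1152. The groups did not overlap, and control 1 stood well under the other controls. Stmn1 rose 1.85-fold (0.89 ± 0.16, limma adjusted p = 0.00681) and was called in all 22 other settings, where its log2 fold change ran from 0.62 without control 1 to 1.10 without control 9. Groups without overlap, the high-dosed animals above, were found for 4 of the 45 members (Mcm4, Stmn1, Ccnd3 and Cdk4) and for 6.95% of all genes; the reverse was found for 0 members and 2.8% of all genes.

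**Figure D3:**
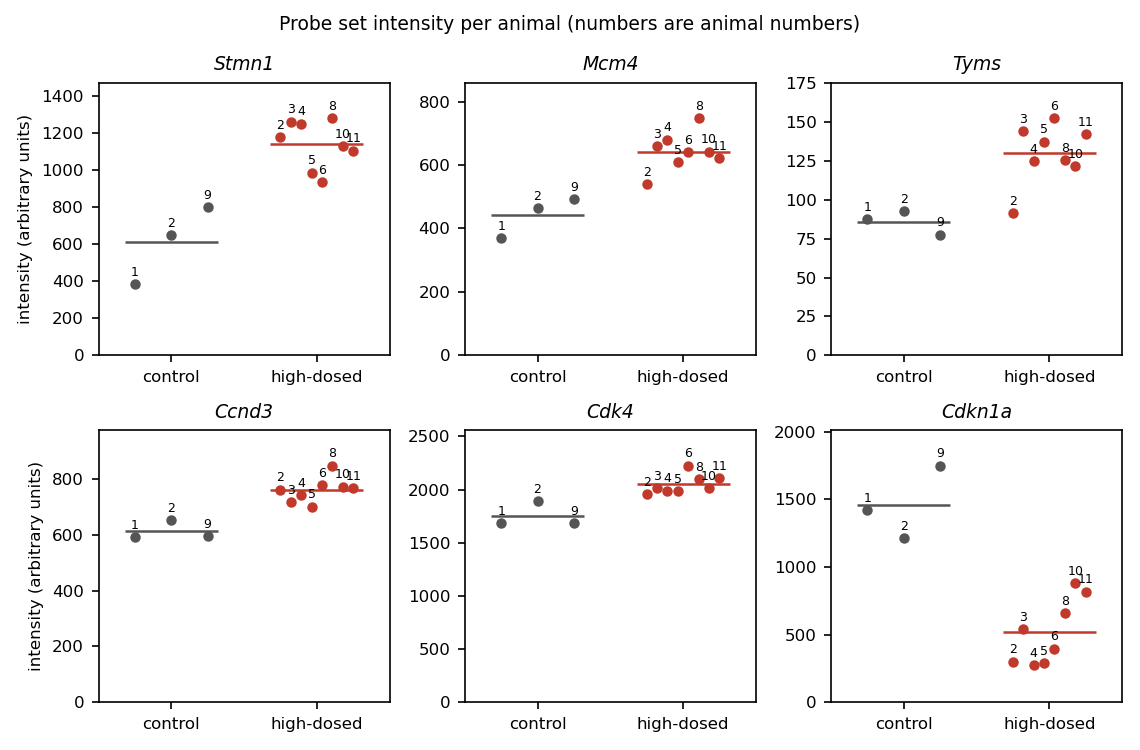
Deposited intensity per animal of the 5 members that rose and of Cdkn1a, which fell, with the group mean as a line and the animal number at each point. In Mcm4, Stmn1, Ccnd3 and Cdk4 the high-dosed animals all lie above the controls; in Tyms high-dosed animal 2 lies among them; in Cdkn1a all 8 lie below.

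The proliferation marker Mki67, encoding Ki-67, read 41.8, 63.3 and 72.6 in controls and 57 to 137, median 95.5, in high-dosed animals, all but the values of animals 8 and 10 under the intensity of about 113 that marks background. High-dosed animal 6, at 57, lay among the controls. Mki67 had a log2 fold change of 0.41 ± 0.14 (95% interval 0.11 to 0.72) and did not pass (limma adjusted p = 0.104). It passed with the animal-number block, drawn after the values had been seen (limma adjusted p = 0.0289), or without high-dosed animal 6 (0.0378). Bub1, a checkpoint kinase, read 84.1, 93.6 and 109 in controls and 105 to 142 in high-dosed animals and missed the threshold narrowly (0.27 ± 0.076, limma adjusted p = 0.052), passing in 7 of the other settings. The mitotic cyclin Ccnb2 had 0.45 ± 0.21 (limma adjusted p = 0.229), with 84.4 in control 1 against 178 and 230 in controls 2 and 9; without control 1 it was 0.16 and without control 9 0.67.

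The remaining mitotic members did not share 1 direction. Aurkb (0.29), Ccna2 (0.26), Top2a (0.21), Cdk1 (0.20), Birc5 (0.080) and Ccnb1 (0.078) lay above 0. Most of these values rested on control 1: without it Aurkb was 0.14, Ccna2 0.13, Top2a 0.026, Cdk1 0.12 and Ccnb1 0.037. Without control 9 Top2a was 0.38 and Birc5 0.041, and without control 2 Ccnb1 was 0.13. A second Top2a probe set, above background, gave -0.023, and a second Ccnb1 probe set, near background like the first, gave 0.49 ± 0.16; neither passed. Ube2c, an enzyme of the anaphase-promoting pathway (-0.083), read 372, 389 and 366 in controls and 266 to 454, median 336, in high-dosed animals, which lay on both sides of the controls. The kinase Plk1 (-0.17), the anaphase activator Cdc20 (-0.17), Cenpf (-0.028), Bub1b (-0.010) and Aurka (-0.0017) lay below 0; Plk1, Ube2c, Cdc20 and Aurka were above the background level. None of these passed (limma adjusted p from 0.239 to 0.994). Of the 16 mitotic members 7 were near background, and Bub1b, the dimmest of them, read 33.2 to 45 over all animals.

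Of the 14 regulators 2 rose, 0 fell and 12 did not pass. Ccnd3, a D-type cyclin of G1, read 591, 651 and 594 in controls and 700 to 846, median 763, in high-dosed animals. Its rise was small and the groups did not overlap (1.22-fold, 0.29 ± 0.067, limma adjusted p = 0.0233). Cdk4, the kinase that D-type cyclins activate, read 1686, 1893 and 1685 in controls and 1955 to 2224, median 2015, in high-dosed animals. It rose 1.16-fold without overlap (0.22 ± 0.056, limma adjusted p = 0.0365). Both calls were lost after quantile normalization or median centring (limma adjusted p from 0.0514 to 0.0622), without control 1 (0.131 and 0.192) or control 9 (0.0759 and 0.12), within animal numbers 6 and below and without animals 8, 10 and 11; that of Cdk4 also without any 1 of 6 high-dosed animals (0.0508 to 0.0633).

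Cyclin D1 (Ccnd1) had the second largest fold change of all members, and the widest spread. It read 815, 1132 and 713 in controls and 953 to 2620, median 1503, in high-dosed animals. The highest value was in high-dosed animal 2, and animals 3, 4 and 10, between 953 and 970, lay among the controls. The log2 fold change of 0.68 ± 0.27 (95% interval 0.084 to 1.27) did not pass (limma adjusted p = 0.168) in any of 22 other settings, and the other Ccnd1 probe sets gave 0.66 and 0.62. Cyclin D2 (Ccnd2) was -0.24 and rested on control 2, at 303 against 150 and 131 in controls 1 and 9; without it the value was 0.051.

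The inhibitors did not move as a group. Cdkn1b, encoding p27, read 1327, 1368 and 1489 in controls and 1329 to 1888, median 1586, in high-dosed animals, with overlap (0.20 ± 0.094, limma adjusted p = 0.239). Cdkn2c, an INK4 inhibitor of Cdk4 and Cdk6, was at 0.010 ± 0.11 (95% interval -0.24 to 0.26). Rb1, encoding the retinoblastoma protein (0.20), and Cdk2 (0.18) lay above 0 and did not pass. The E-type cyclins Ccne1 (-0.045) and Ccne2 (-0.0023), Cdk6 (-0.047), E2f1 (-0.0097) and Foxm1 (-0.053) stayed within 0.06 of 0, and Ccne2, Cdk6, E2f1 and Foxm1 were near background. Wee1, which inhibits Cdk1 and is known as an output of the circadian clock in liver, was at -0.0012 ± 0.14 (95% interval -0.31 to 0.31).

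Cdkn1a, the inhibitor p21 and a p53 target, was not among the 47 genes but acts on the same kinases. It read 1418, 1212 and 1748 in controls and 276 to 881, median 469, in high-dosed animals and had a log2 fold change of -1.49 ± 0.31, a fall that passed the test (limma adjusted p = 0.0152); the call was lost without control 1 (adjusted p = 0.0742) or control 9 (0.0633). The highest values among the high-dosed animals were in animals 8, 10 and 11 (658, 881 and 818).

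Between the sets, the replication genes and the mitotic genes had like medians and the regulators a lower one. The median log2 fold change was 0.14 in the replication genes, 0.14 in the mitotic genes and 0.0046 in the regulators, against -0.0027 over all genes; 12 of 15, 10 of 16 and 7 of 14 lay above 0. Averaged over the members of a set and set against the control mean, high-dosed animals lay from 0.063 to 0.27 for replication genes (mean 0.15 ± 0.062, SD, n = 8) where controls ran from -0.059 to 0.094. For mitotic genes they lay from 0.080 to 0.27 (0.17 ± 0.070) where controls ran from -0.16 in control 1 to 0.11 in control 9. For regulators they lay from -0.033 to 0.26 (0.098 ± 0.085) where controls ran from -0.061 to 0.12. The groups overlapped in each set. The same mean over all genes ran from -0.026 to 0.035 in controls and from -0.032 to 0.096 in high-dosed animals, highest in high-dosed animal 6, which also had the highest regulator mean. The medians of 2 sets depended on dim genes: with a filter at the 60th percentile of signal the mitotic median was -0.083, and with filters at the 40th and 60th percentiles the regulator median was 0.19 and 0.20.

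**Figure D4:**
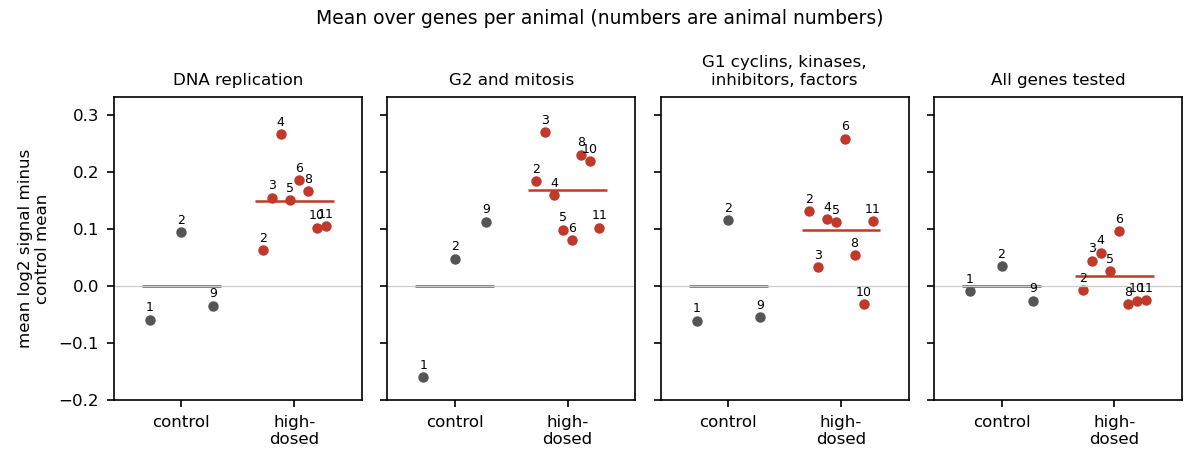
Mean over the members of each set of log2 signal minus the control mean of the gene, per animal, with the same over all genes; lines are group means and labels are animal numbers. High-dosed animals mostly lie above the controls in the replication and mitotic sets, control 1 is lowest in the mitotic set at -0.16, and the groups overlap in every panel.

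The high-dosed animals differed among themselves in some mitotic and some replication genes. In Mki67, Ccna2, Ccnb2 and Bub1 animals 8, 10 and 11 all lay above the other 5 high-dosed animals. The mean of these animals minus the mean of the other 5 was 0.37, 0.36, 0.38 and 0.14 on the log2 scale. Mki67 and Ccna2 were near background. Bub1 was nearly tied at the border, with 131.54 in animal 10 against 131.44 in animal 3. Mki67 read 128, 137 and 102 in those animals and 57 to 98.2 in the other 5; Ccnb2 read 278, 299 and 275 against 151 to 274. In Tk1, Plk1, Mcm5 and Cdt1 the same 3 animals all lay below, with differences of means of -0.62, -0.43, -0.34 and -0.25. Plk1 read 257, 289 and 232 in them and 326 to 485 in the other 5. For Tk1 this held on 2 of its 3 probe sets, 1 of them near background. As deposited, these 3 animals lay all above the other 5 in 4 of 16 mitotic genes (25%, against 4.3% of all genes). They lay all below in 4 (25%, against 24.7% of all genes). After each array was centred on its median they lay all above in 6 (37.5%, against 23.1%). They then lay all below in 1, Plk1 (6.25%, against 11.3%). The replication genes gave a like share after centring. The 3 animals lay all above in 5 of 15 of them (33.3%) and all below in 3 (20%). As deposited they lay all above in 0 of the 15 and all below in 4 (26.7%).

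This split was drawn after the values had been seen and gets no test. As deposited, the 3 animals lay all above the other 5 in 4 of 45 members (8.89%) and 4.3% of all genes, and all below in 12 members (26.7%) and 24.7% of all genes; their arrays had median intensities of 149 to 153, against 159 to 187 in the other 5. After each array was centred on its median the shares were 28.9% of members against 23.1% of all genes above, and 8.89% against 11.3% below. Mki67, Ccna2, Ccnb2, Bub1, Tk1, Plk1, Mcm5 and Cdt1 kept their side after centring. Every other member below as deposited lost that side: Aurka, Birc5, Ccne1, Ccne2, Cdk6, Foxm1, Gins1 and Ube2c. Mcm4, Pcna, Rrm1, Pola1, Rfc4, Ccnd3, Cdk4, Bub1b and Cenpf joined those above. High-dosed animal 8 differed from the others in its labelled age, and animals 10 and 11 did not.

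**Figure D5:**
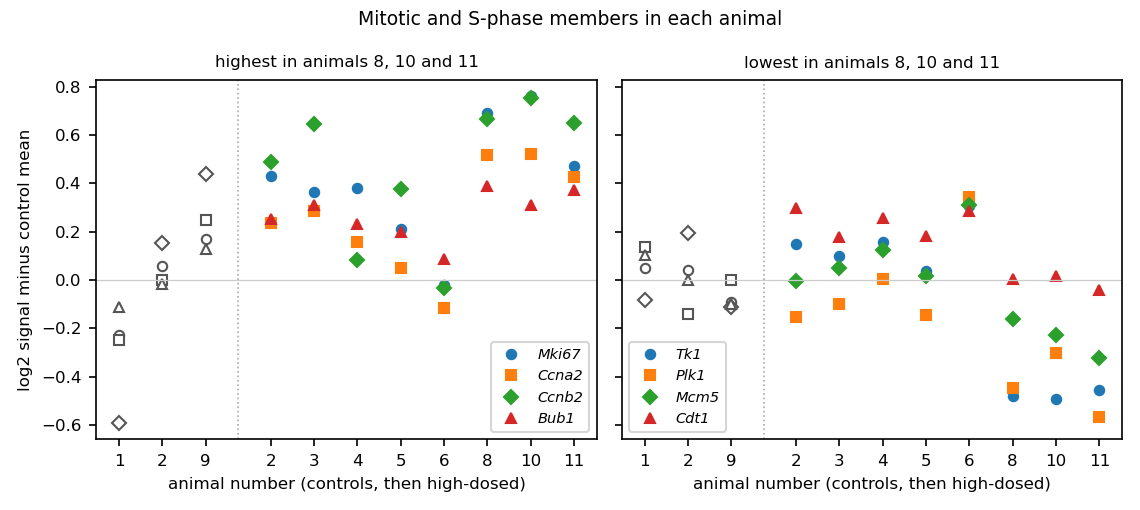
Log2 signal minus the control mean per animal, controls as open grey symbols and high-dosed animals as filled ones, for 4 members highest in high-dosed animals 8, 10 and 11 (left) and 4 lowest in them (right). The Tk1 probe set plotted lies above the control mean in animals 2 to 6 and below it in animals 8, 10 and 11.

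Genes of the same pathways from 3 further lists gave a like picture, with few calls. Of 40 other measured replication genes 4 rose (10%, against 4.83% of all genes), 0 fell and 36 did not pass (median 0.094). Rfc3, which with Rfc4 belongs to the clamp loader, read 258, 289 and 248 in controls and 357 to 455, median 428, in high-dosed animals without overlap. It rose 1.46-fold (0.55 ± 0.088, limma adjusted p = 0.00407) and was called in all 22 other settings. The maintenance DNA methyltransferase Dnmt1 (0.35 ± 0.077) and Rpa2, which coats single-stranded DNA (0.47 ± 0.11), also rose, with limma adjusted p of 0.0172 and 0.0227, and both were lost without control 1 (0.121 and 0.138); Dnmt1 was also lost without control 9, within animal numbers 6 and below and without high-dosed animals 8, 10 and 11, and Rpa2 without control 2.

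Of 47 other measured mitotic genes 3 rose (6.38%, near the 4.83% of all genes), 0 fell and 44 did not pass (median 0.057). The histone variant gene H2az1 read 4646, 4585 and 4766 in controls and 5206 to 5678 in high-dosed animals, without overlap. Its rise was 1.16-fold (0.22 ± 0.039, limma adjusted p = 0.0065). Lamin B1, Lmnb1 (0.43 ± 0.085), and the chromosomal passenger gene Cdca8 (0.27 ± 0.069) rose too (limma adjusted p = 0.0113 and 0.0337). Lmnb1 was 0.074 when all its probe sets were averaged. Without control 1 Lmnb1 and Cdca8 were lost, within animal numbers 6 and below all 3, and Cdca8, near background, also without control 9 or any 1 of high-dosed animals 3, 4 and 5.

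Of 30 other measured regulators 4 rose (13.3%, against 4.83% of all genes), 1 fell, Cdkn1a, and 25 did not pass (median 0.088). Lin9, a subunit of the MuvB core, read 133, 147 and 173 in controls and 198 to 314, median 271, in high-dosed animals. The groups did not overlap, and Lin9 rose 1.55-fold (0.63 ± 0.11, limma adjusted p = 0.00543). Cdkn1c, the inhibitor p57, read 253, 226 and 260 in controls and 296 to 473, median 405, in high-dosed animals and rose 1.46-fold (0.55 ± 0.11, limma adjusted p = 0.00973), so that the p21 and p57 genes moved in opposite directions. Lin9 and Cdkn1c were called in every other setting that tested them. Ccng1, a cyclin G gene and p53 target, rose (0.42 ± 0.11, limma adjusted p = 0.0328) and was lost in 9 other settings, among them those without any 1 control.

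Markers of other liver cells also differed between the groups. Of 8 measured endothelial markers 3 rose, Emcn, Pecam1 and Stab2, and 0 fell. Tek, Kdr and Vwf lay above 0 and Lyve1 (-0.12) and Flt1 (-0.15) below it, and none of these passed. The summed intensity of all 8 ran from 10423 to 11636 in controls and 11783 to 13028 in high-dosed animals. Kdr, the brightest of them, made up 3824 to 4448 and 4355 to 4821 of these sums. Of 5 bile duct markers 1 rose, Epcam (1.78-fold, limma adjusted p = 0.00683). The sums over the 5 were 717 to 871 in controls and 1064 to 1746 in high-dosed animals. Epcam alone made up 410 to 512 and 665 to 1265 of them. Krt19, Krt7 and Cftr were near background. Of 8 Kupffer cell markers 0 passed; their sum was 17653 in control 1, 21976 and 22425 in the other controls and 21616 to 30447 in high-dosed animals. Of 12 lymphocyte, 9 stellate cell, 6 red cell precursor and 5 neutrophil markers 0 passed in any list. Among them 6 of the 12 lymphocyte markers, Cd3e and Ms4a1 included, and 3 of 5 neutrophil markers were near background. Of 10 hepatocyte markers 1 rose and 1 fell, and Alb was at 0.0012 ± 0.021. The part of these cells in the member values was not tested.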

How the data were processed

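RNA of 11 livers was hybridised to 11 Affymetrix arrays, 3 from control and 8 from high-dosed rats; replicates are animals. Total RNA was extracted with Trizol and labelled with biotin, per the labels' protocols. The values are the deposited probe set intensity, linear, from 1 to 34328; MAS5 is named without a version per the submitters' processing notes, and the scaling of the arrays by the authors is not stated there. No pair of arrays was identical. For arrays no depth exists, and the number of controls limits the precision. Genes were named from the platform annotation; all 45 measured members matched RefSeq (GRCr8) by Entrez identifier with 0 changed symbols.

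Intensities were transformed as log2(intensity + 55.26), the pseudocount being the 20th percentile of all values. The 57 control probe sets were left out, and 1 probe set per gene was kept. Groups were compared with limma 3.58.1 (R 4.3.3; intensity trend, two-sided, Benjamini-Hochberg over 14217 genes, threshold 0.05), first tested on simulated data. No signal filter was used, so that dim members were tested like all genes. Of the members 11 had several probe sets, and in 6 of these (Cdc20, Cdkn1b, Cdkn2c, Foxm1, Tk1 and Top2a) at least 1 differed in sign from the one used. Every member could be named; called members and the 2 with the highest signal in each set were given in full, as were up to 3 called genes per direction of each pathway list. Gaps among high-dosed animals were sought in 55 genes. The members and lists were chosen with earlier results of these data known. The alternatives were other pseudocounts, filters, normalizations, variance models and probe set rules, the animal number as a block, and subsets of animals.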

Additional observations from a re-analysis of the deposited data

Results flagged for a closer look

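Among the 8 high-dosed animals, 3 of 55 named genes had 1 animal set apart from the rest by a wide gap relative to the group's range, which chance alone gives in about 1 in 20 groups. Tyms in high-dosed animal 2 had a log2 signal of 7.196, where the nearest other animal was at 7.47 and the highest at 7.70. Cdc20 in high-dosed animal 11 was at 7.72, the nearest other at 7.99 and the highest at 8.20. None of the other Cdc20 probe sets, all near background, set animal 11 apart at the low end. Ccnb1, near background, was at 7.502 in high-dosed animal 3, with the nearest other at 7.37 and the lowest at 7.28. The second Ccnb1 probe set, also near background, did not set animal 3 apart. Its intensity there was 121.51, below 128.15 in animal 2.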

How the results depend on the processing

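No paired analysis was possible because the groups shared only 1 animal number. Control 1 had the widest effect: leaving out 1 animal at a time, 273 to 1236 genes and 1 to 8 members were called, the fewest without control 1; without control 2 574 genes were called. The set medians then ran from 0.086 to 0.19 (replication), 0.063 to 0.18 (mitotic) and -0.015 to 0.096 (regulators, the highest without control 2). With the animal-number block, drawn after the values had been seen, 1455 genes and 8 members were called. Within numbers 6 and below the counts were 522 and 2. Without high-dosed animals 8, 10 and 11 2 members were called, and after quantile normalization or median centring 3 members. With the filter at the 40th percentile the regulator median was 0.19, and at the 60th it was 0.20, over fewer genes. The mitotic median lay above 0 with the filter at the 40th percentile. At the 60th it was -0.083, the value of Ube2c, with only Stmn1, Ube2c and Plk1 left. Of the 5 called members, only Stmn1 was called in every setting. None of the 5 called members and of the 10 called pathway genes recomputed in each setting changed sign. The sign turned in members that were never called, most of them near 0 and Ccnd2 (-0.24) farthest from it; the cause was not tested. After quantile normalization the values were Prim1 -0.0027, Bub1b 0.016, Aurka 0.035, Cenpf 0.017, Ccne2 0.023, Cdkn2c -0.0061, E2f1 0.036 and Wee1 0.039. After median centring the values were Mcm5 0.012, Bub1b 0.028, Aurka 0.037, Cenpf 0.011, Ccne2 0.036, E2f1 0.029 and Wee1 0.037. With probe sets averaged the values were Cdkn2c -0.027. With the block the values were Prim1 -0.0029, Aurka 8.6e-05, Ccne2 0.00035 and Wee1 0.0012. Within numbers 6 and below the values were Mcm3 -0.0025, Mcm5 0.043, Tk1 0.10, Prim1 -0.15, Aurka 0.12, Ube2c 0.050, Ccne1 0.052, Ccne2 0.071 and Wee1 0.079. Without animals 8, 10 and 11 the values were Mcm5 0.10, Tk1 0.15, Prim1 -0.13, Aurka 0.050, Ube2c 0.067, Ccne1 0.037, Ccne2 0.042, Cdk6 0.013, Wee1 0.043 and Foxm1 0.0017. Leaving out 1 animal at a time, the values ran as follows: Prim1 -0.084 to 0.12, Aurka -0.086 to 0.073, Ccne2 -0.064 to 0.030, Cdkn2c -0.041 to 0.11, Mcm3 -0.030 to 0.061, Mcm5 -0.083 to 0.071, Bub1b -0.044 to 0.046, Ccnd2 -0.42 to 0.051, Cdk6 -0.081 to 0.012, Wee1 -0.12 to 0.085 and E2f1 -0.030 to 0.0052.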
